A study of Arabidopsis thaliana with 4 samples.

Results

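WES1 (AT4G27260, also called GH3.5) and IAA18 (AT1G51950) are 2 early auxin genes of Arabidopsis thaliana, chosen by gene symbol from 13350 genes with a probe set of their own on the array. They were proposed with results of these same arrays known, so their values are given as a description and carry no test. Each is read by 1 probe set, and both probe sets were over the floor of 22.11 signal units on all 4 arrays. WES1 lies on chromosome 4 and IAA18 on chromosome 1, and both are protein-coding genes.

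Auxin is a growth hormone that acts by removing repressors. Aux/IAA proteins such as IAA18 bind the auxin response factors (ARFs) and hold their target genes silent, and auxin brings these repressors to TIR1/AFB receptors, which mark them for destruction. GH3 enzymes such as WES1 join auxin to amino acids and so lower the free hormone, and WES1 can also use salicylic acid, a defence hormone. Many GH3 and Aux/IAA genes are themselves switched on by auxin, which makes them feedback brakes of the pathway.

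The 4 groups were wild type (Col-0) and the mutant sfr6, each in light and in dark, with 1 ATH1 array of biotin-labelled RNA each. The mutant sfr6 was made by chemical mutagenesis (EMS) in the Col-0 background, and the affected gene is known as MED16, part of the Mediator complex, through which regulators bound to DNA reach RNA polymerase. The plants spent 7 days on agar and then 24 h in a cabinet at 240 microEinsteins with 16 h of light and 8 h of dark a day. Light groups then stayed uncovered for 3 h, while dark groups were wrapped in foil for 3 h. The labels name no transgene and no other sfr6 allele, and they do not say how many plants went into an array.

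The labels call the tissue cell culture, whereas the treatment text describes plants. All 5 markers fixed for green shoots (LHCB4.1, LHCB4.2, LHCB4.3, PORB and CHLM) and both root markers (PYK10 and EXPA7) were over the floor on all 4 arrays. LHCB4.1, an antenna protein gene, read between 2747 and 3695, and PYK10, a root and hypocotyl glucosidase gene, between 1823 and 3004. Some markers moved between arrays. EXPA7, a root-hair expansin gene, was 1.94-fold higher in sfr6 than in wild type in light. Its signals lay between 23.3 and 54.6, near the floor at the lower end. The dark signal of PORB, a chlorophyll synthesis gene, was higher by 2.49-fold for wild type and 3.04-fold for sfr6. The trimmed mean was 100.009 on every array. Between 58.2% and 61.6% of probe sets were over the floor. The ribosomal RNA control was higher on the dark arrays, at 364.4 in wild type and 1321 in sfr6, than on the light arrays, at 121.6 and 119.8, and the 3' to 5' ratio of a first GAPDH control pair was 1.352 in wild type in dark, where WES1 peaks, against 1.088 to 1.134 on the other arrays. In the other GAPDH pair that ratio was 0.949 in wild type in dark and between 0.881 and 0.989 elsewhere. The part of these measures in the results was not tested.

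WES1 was higher after 3 h of darkness in both genotypes. Its signal was 87.9 in wild type in light, 304.7 in wild type in dark, 81.8 in sfr6 in light and 209.6 in sfr6 in dark. Both dark arrays lay above both light arrays, and the order from the top was wild type dark, sfr6 dark, wild type light and sfr6 light. The dark signal was 3.47 times the light signal for wild type and 2.56 times for sfr6, which are log2 differences of 1.79 and 1.36.

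IAA18 had a shallower profile with another order. Its signal was 166.8 in wild type in light, 201.3 in wild type in dark, 132.7 in sfr6 in light and 244.9 in sfr6 in dark. Again both dark arrays lay above both light arrays, but here sfr6 held the highest and the lowest value, with the wild-type arrays between them. The dark signal was 1.21-fold the light signal in wild type and 1.85-fold in sfr6, log2 differences of 0.27 and 0.88. In whole plants, fewer cells of a type that uses the gene and less RNA per cell cannot be told apart.

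**Figure D1:**
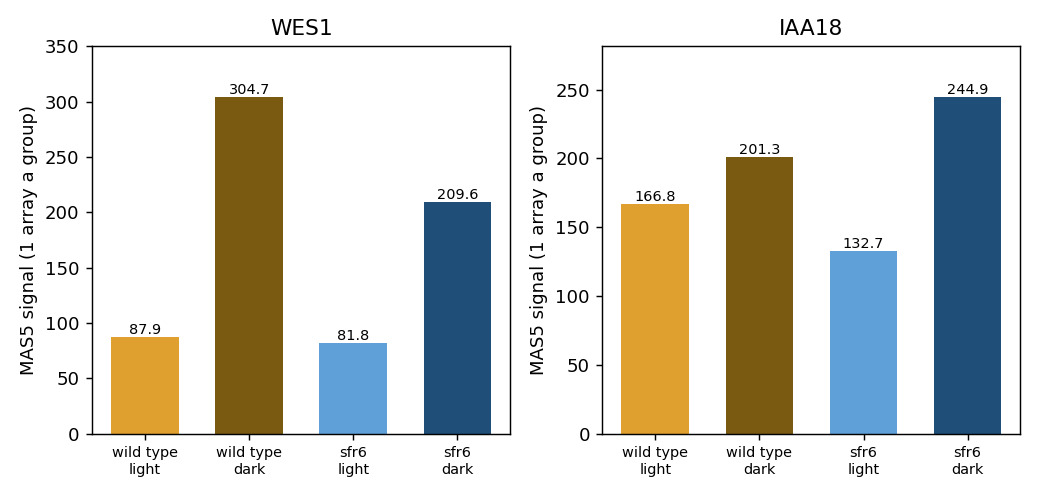
MAS5 signal (linear scale from 0) of WES1 on the left and IAA18 on the right, 1 bar for each array, with no error bar because each group has 1 array. WES1 is highest in wild type in dark, at 304.7, and IAA18 in sfr6 in dark, at 244.9.

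Both dark arrays lay above both light arrays for 28.3% of the 15121 probe sets tested (those reaching the floor on 1 array or more) and below them for 31.5%, so this order is common here. At least 2-fold higher in dark were 6.47% of 14513 probe sets in wild type and 6.85% of 14564 in sfr6, and 7.19% and 6.87% were as much lower. WES1 passed 2-fold in both genotypes and IAA18 in neither. A larger log2 difference than that of WES1 was seen for 284 probe sets (1.96%) in wild type and 518 (3.56%) in sfr6. For IAA18 the counts were 4017 (27.7%) in wild type and 1250 (8.58%) in sfr6. The members were chosen from these contrasts, so nothing further is read from their places.

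Neither gene differed by 2-fold between the genotypes. In light WES1 was 1.07-fold lower in sfr6 than in wild type, and in dark 1.45-fold lower. In light IAA18 was 1.26-fold lower in sfr6, and in dark 1.22-fold higher. That size was passed in light by 1.01% of 14658 probe sets as higher in sfr6 and 1.72% as lower, and in dark by 0.775% of 13930 as higher and 1.67% as lower. A lower difference than that of WES1 was seen for 5336 probe sets (36.4%) in light and 858 (6.16%) in dark. For IAA18, 2480 (16.9%) were lower in light and 3100 (22.3%) were higher in dark.

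The dark response of sfr6 relative to wild type pointed in opposite directions for the 2 genes. On the log2 scale it was -0.44 for WES1 and 0.61 for IAA18, against a median of 0.02 over all 15121 probe sets. With array-median spike-in centring it was -0.72 for WES1 and 0.33 for IAA18. At least 2-fold were 1.08% of probe sets as a stronger response in sfr6 and 1.48% as a weaker one, and neither gene was among them. A larger value than that of IAA18 was seen for 893 probe sets (5.91%), and a smaller one than that of WES1 for 1611 (10.7%). This difference uses all 4 arrays and leaves nothing to estimate its error from.

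With 1 array a group, the limma errors given below rest on 1 residual degree of freedom and are not given for WES1 or IAA18. For these genes the spread at hand is that of the 18 bacterial and phage spike-in control probe sets. This spread measures hybridisation and no difference between plants. Its SD on the log2 scale was 0.20 for dark against light in wild type, 0.25 in sfr6, 0.22 for sfr6 against wild type in light and 0.13 in dark. The spread between plants of a group is not known here, so no order of the arrays of WES1 or IAA18 can be set against it. On the log2 scale WES1 had genotype differences of -0.10 (light) and -0.54 (dark), and IAA18 had -0.33 and 0.28.

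The spike-in controls themselves read lower in sfr6, by a median log2 difference of -0.19 in light and -0.12 in dark. Centring the arrays on these controls turned the light genotype difference of WES1 from -0.10 to 0.12 and brought that of IAA18 from -0.33 to -0.11. Centring on each array's median spike-in signal, chosen after seeing the data, gave 0.26 for WES1 and 0.03 for IAA18. Which genotype has the higher light level of WES1 or IAA18 therefore depends on the scale. The 3 changes of floor cannot move these genes, which lie over each floor. Over the 4 other scalings the dark difference of WES1 lay between 1.77 and 1.95 in wild type and between 1.22 and 1.46 in sfr6. That of IAA18 lay between 0.24 and 0.43 in wild type and between 0.75 and 0.98 in sfr6.

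**Figure D2:**
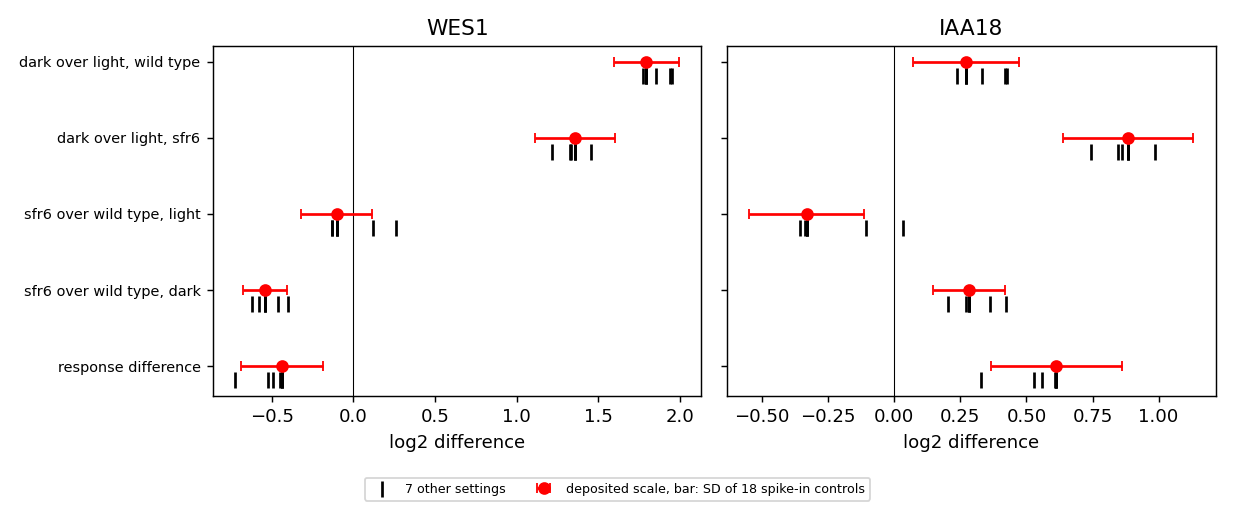
Log2 differences (horizontal axis) of WES1 and IAA18 in the 4 pairwise comparisons and in the difference of the dark responses, sfr6 minus wild type. Red points are on the deposited scale, red bars show the SD of the 18 spike-in controls in that comparison and black ticks show the 7 other settings, of which 3 are changes of floor that leave the values as they are. The dark differences of both genes stay above 0 in the 4 scalings, while the light genotype differences lie on both sides of 0.

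The pathway around the 2 genes was described through 7 lists of auxin genes. Besides the members, 24 listed genes had a probe set of their own, and 11 of these reached the floor on 1 array or more. No listed ARF gene had a probe set of its own by name, beside 24 ARF symbols in RefSeq. For auxin transport there was 1 beside 31, under the floor, and for receptors 1 beside 23. The other lists were also covered in part, with 5 GH3 genes beside 11 symbols and 7 Aux/IAA genes beside 28, members included. The lists therefore say nothing on ARFs or transport, and a gene not named here was not found silent. By limma, over the average of both genotypes, 2 of the 11 genes rose in the dark, 4 fell and 5 did not pass, where 15.4% of all 15121 probe sets rose and 17.8% fell. The median average log2 dark effect was -0.34 for these 11 genes and -0.05 for all probe sets. BIM1 (-1.155) and SMZ (-1.016), 2 of the 4 that fell, are known for roles other than auxin, and they pull this median down. ARL (2.324), 1 of the 2 that rose, is also known as a brassinosteroid-responsive gene and pulls the other way. For the average genotype effect 0 of 11 passed in either direction by limma, against 0.417% of all probe sets as higher in sfr6 and 0.860% as lower. At an unadjusted p under 0.05, 1 of the 11 (BIM1) was higher in sfr6 and 2 (HAT2 and ARL) were lower, where 11.3% of all probe sets were higher and 8.47% lower.

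**Figure D3:**
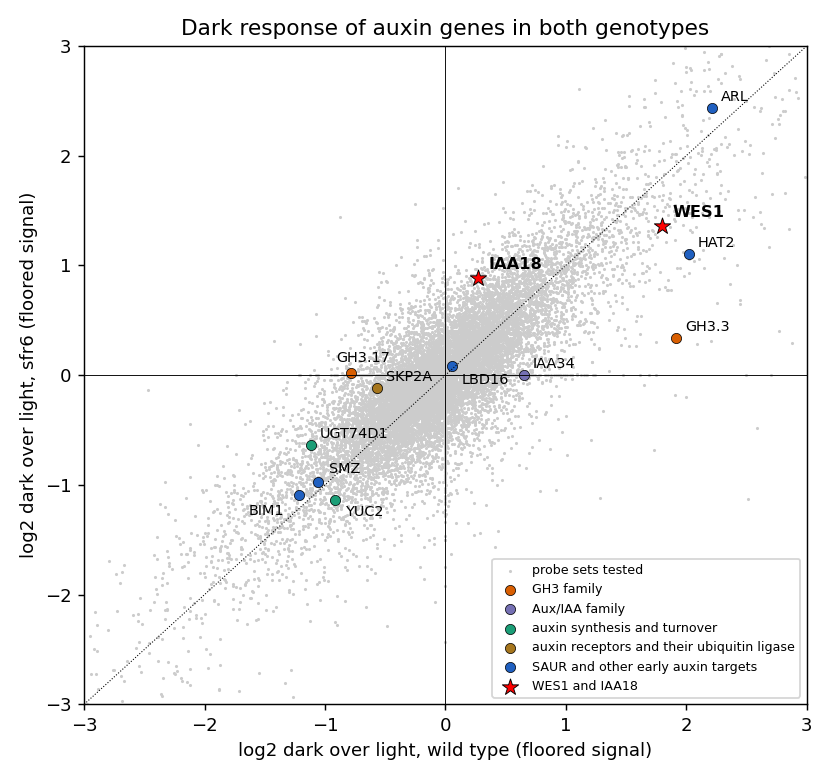
Log2 dark over light in wild type (horizontal axis) against sfr6 (vertical axis), on floored signals. Grey points are the 15121 probe sets, of which 106 lie beyond the plotted range of 3 log2 units, coloured points are the 11 other auxin genes by list, stars are WES1 and IAA18, and the dotted line marks equal responses. WES1, HAT2, GH3.3, IAA34 and YUC2 lie below the line. IAA18, GH3.17, UGT74D1, SKP2A, ARL, BIM1, SMZ and LBD16 lie above it.

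Among the conjugating enzymes, GH3.3, which like WES1 joins auxin to amino acids, did not pass the test. Its signal was 10.6 in wild type in light, 83.6 in wild type in dark, 42.3 in sfr6 in light and 53.3 in sfr6 in dark. The wild-type arrays held its lowest and highest value, and both sfr6 arrays lay between them. The dark signal was at least 3.78-fold the light signal in wild type, a bound because the light signal was under the floor, and 1.26-fold in sfr6. The average log2 effect was 1.13 ± 0.36 (SE, limma, adjusted p 0.0587).

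GH3.17, which makes the glutamate conjugate of auxin, read 107.8 in wild type in light, 62.6 in wild type in dark, 82.2 in sfr6 in light and 83.4 in sfr6 in dark. In wild type its dark signal was 1.72-fold lower and in sfr6 it was level, at 1.01-fold, and did not pass (average log2 effect -0.38 ± 0.23, limma, adjusted p 0.249). GH3.1 and GH3.9 stayed under the floor on all 4 arrays, with GH3.1 at most 14.1 and GH3.9 at most 19.1. So 2 GH3 genes beside WES1 could be compared, and neither passed the test. Because the test takes a difference between the dark responses of the genotypes as error, it cannot show whether a gene responded in 1 genotype alone.

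Among the repressors, IAA34, an Aux/IAA protein without the usual degradation motif, was over the floor on 1 array alone. Its signal was 17.6 in wild type in light, 34.7 in wild type in dark, 5.66 in sfr6 in light and 21.4 in sfr6 in dark. Each dark value was above the light value of its genotype, but the average effect on floored signals, 0.33 ± 0.20, did not pass (limma, adjusted p 0.258). IAA20, IAA29, IAA30, IAA31 and IAA33 were under the floor on all arrays. The highest of their signals was 19.8, for IAA33 in wild type in light.

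Both measured genes on the list of auxin synthesis and turnover fell in the dark, YUC2 not with the floor at the 60th percentile (average log2 effect -0.12, adjusted p 0.441 by limma). The list is not complete. IAGLU, named as an indole-3-acetate glucosyltransferase, was not on it and had log2 dark differences of -1.96 in wild type and -1.95 in sfr6. YUC2, a flavin monooxygenase of the last step of auxin synthesis, read 68.7 in wild type in light, 36.3 in wild type in dark, 58.0 in sfr6 in light and 26.4 in sfr6 in dark. It fell in wild type by 1.89-fold and in sfr6 by 2.20-fold (average log2 effect -1.03 ± 0.18, limma, adjusted p 0.00828). UGT74D1, which attaches glucose to auxin, read 430.7, 198.4, 384.8 and 247.4 in the same order of arrays. In wild type it fell 2.17-fold and in sfr6 1.56-fold, with an average log2 effect of -0.88 ± 0.15 (limma, adjusted p 0.0070). YUC4, YUC6, YUC11 and UGT84B1 were under the floor throughout.

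On the receptor side, SKP2A, an F-box protein of a ubiquitin ligase that also binds auxin, did not pass. It read 322.5 in wild type in light, 217.9 in wild type in dark, 225.8 in sfr6 in light and 208.4 in sfr6 in dark. Only the wild-type light array stood above the rest, and the average log2 effect was -0.34 ± 0.15 (limma, adjusted p 0.127). WAG2, a kinase of auxin transport, was under the floor on all arrays, at 14.4 or less.

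Of the 5 measured genes on the list of early targets, 2 rose and 2 fell. HAT2, a homeodomain-leucine zipper gene induced by auxin and by shade, read 125.3 in wild type in light, 509.3 in wild type in dark, 105.1 in sfr6 in light and 226.3 in sfr6 in dark. On the deposited scale the array order is that of WES1, but with spike-in centring the light arrays of WES1 change places (a log2 difference of 0.12 for sfr6 over wild type) and those of HAT2 do not (-0.03). With array-median spike-in centring the light arrays of both genes change places, at 0.26 for WES1 and 0.11 for HAT2. In wild type HAT2 rose 4.06-fold and in sfr6 2.15-fold (average log2 effect 1.57 ± 0.22, limma, adjusted p 0.00391). In the dark it was 2.25-fold lower in sfr6 than in wild type.

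ARL, the ARGOS-like regulator of cell expansion, also rose. It read 57.7 in wild type in light, 268.0 in wild type in dark, 41.3 in sfr6 in light and 223.2 in sfr6 in dark, with both dark arrays far above both light arrays. In wild type the rise was 4.64-fold and in sfr6 5.40-fold, with an average log2 effect of 2.32 ± 0.15 (limma, adjusted p 0.000371). ARL is also known as a brassinosteroid-responsive gene.

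The 2 genes that fell are known for other roles. BIM1, a basic helix-loop-helix partner in brassinosteroid signalling, fell by 2.32-fold (wild type) and 2.14-fold (mutant). SMZ, an AP2-type repressor of flowering, fell 2.09-fold and 1.96-fold, and lost its call with the floor at the 60th percentile (-0.31, adjusted p 0.103 by limma). Their adjusted p-values by limma were 0.00501 and 0.00806. LBD16, a lateral root regulator, stayed near the floor, between 19.0 and 23.9, and LBD29 was under it on all arrays.

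The patterns of WES1 and IAA18 were compared by likeness, with no test. Likeness was taken as the root mean square difference over the 4 arrays between log2 signals centred on each gene's own mean, among 6403 other named genes over the floor on all arrays. A small value means that the 2 profiles have the same shape and size. IAA18 stood in place 1091 of the genes ordered by likeness to WES1, and WES1 in place 5117 of those ordered by likeness to IAA18, at a difference of 0.58. HAT2 was in place 105 for WES1, at 0.23, and ARL in place 440, at 0.41. The other auxin list genes compared stood far lower for WES1, from SKP2A in place 4703 to BIM1 in place 6214. For IAA18 the list genes beside WES1, HAT2 and ARL included, stood between place 4272 (SKP2A) and place 6140 (BIM1). These places describe 4 arrays and say nothing of shared control.

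The 5 named genes most like WES1 were AT1G68410, BZIP53, AT4G33940, AT3G03150 and AT1G32920, at differences between 0.04 and 0.10. BZIP53 encodes a leucine zipper factor known to work with low-energy bZIP partners on amino acid breakdown genes such as proline dehydrogenase. It read 244.2 in wild type in light, 773.7 in wild type in dark, 215.5 in sfr6 in light and 581.4 in sfr6 in dark. Its dark signal was 3.168-fold the light signal in wild type and 2.70-fold in sfr6, beside 3.47-fold and 2.56-fold for WES1. AT1G68410, the closest of all, read 160.0 in wild type in light, 542.3 in wild type in dark, 156.2 in sfr6 in light and 374.8 in sfr6 in dark.

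The 5 most like IAA18 were AT1G11390, NDP1, AT5G16610, AT3G17740 and AT4G17810, at differences between 0.01 and 0.04. The sfr6 light signals of AT1G11390, NDP1, AT5G16610 and AT3G17740, from 25.05 to 27.4, lay near the floor of 22.11. AT1G11390 read 32.4 in wild type in light, 38.5 in wild type in dark, 25.05 in sfr6 in light and 47.2 in sfr6 in dark. Like IAA18 it was highest in sfr6 in dark and lowest in sfr6 in light. Of the 15121 probe sets, 17.1% were lower in sfr6 in light and higher in sfr6 in dark at any size, so this change of sign is a frequent one. That share includes probe sets with lower signals in the dark, and the share with the full array order of IAA18 was not counted.

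**Figure D4:**
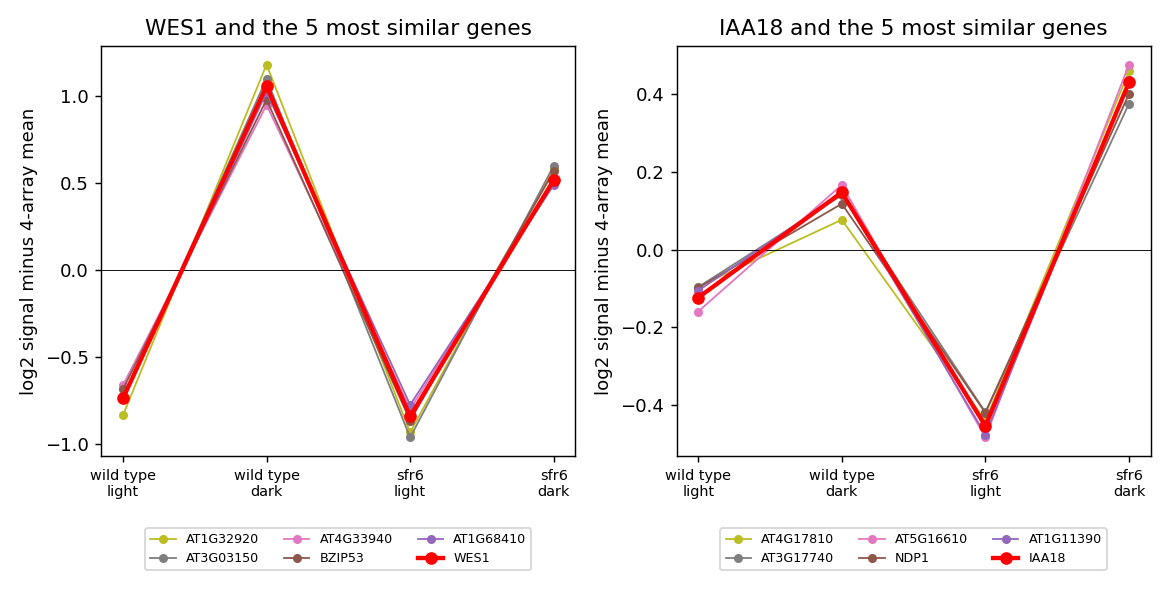
Log2 signal minus each gene's mean over the 4 arrays (vertical axis) on each array, for WES1 (left) and IAA18 (right) as thick red lines and for the 5 named genes most like each as thin lines. The lines join separate samples and are no time course. WES1 peaks in wild type in dark and IAA18 in sfr6 in dark, and the vertical range is wider for WES1.

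Of the 4 genes next to the members on the chromosome, by the order of the RefSeq annotation, 1 could be measured. AT4G27270, on one side of WES1, read 39.99 in wild type in light, 27.8 in wild type in dark, 66.0 in sfr6 in light and 49.3 in sfr6 in dark. Its dark signal was lower, by 1.44-fold for wild type and 1.34-fold for sfr6, without passing the test (average log2 effect -0.47 ± 0.18, limma, adjusted p 0.0875). AT4G27250, on the other side of WES1, and IQD27, next to IAA18, were under the floor on all arrays. LYK3, the other neighbour of IAA18, was not analysed here.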

How the data were processed

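Each of the 4 samples was hybridised to 1 array. The deposited values are linear MAS5 intensity values per probe set, per the submitters' processing notes, which give no version and no detection calls. The number of arrays limits the precision.

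Control probe sets (64 of 22810) were left out of comparisons. Signals under the floor, the 40th percentile (22.11), were set to it and log2 was taken, and 15121 probe sets at or over it on at least 1 array were tested. Folds that involve a signal under the floor are bounds. Of the other probe sets 13513 carry 1 gene, 503 several and 8730 none. Names came from the platform annotation, updated through RefSeq (TAIR10.1, names and gene order alone), where 13436 matched. A gene with several probe sets was read from the brightest.

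The average effects of darkness and of genotype came from 1 additive limma fit (limma 3.58.1, R 4.3.3), with eBayes variances following intensity and a threshold of 0.05 on Benjamini-Hochberg adjusted p-values over all tested probe sets. The model has 1 residual degree of freedom and takes the genotypes as blocks. It was also run on simulated data that held no genotype effect and no difference in dark response between the genotypes. That run cannot show how such differences affect the p-values here. "Rose" and "fell" mean past this threshold, and no p is given for WES1 or IAA18. Figures used matplotlib 3.10.9.

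The members and lists were chosen with earlier results of these data known. Named genes are the members, all measured GH3 and Aux/IAA genes, the 3 genes per other list with the largest average dark effect, and the 5 most like each member. LBD16, SMZ, IAGLU, the neighbours and genes under the floor were named after their values were seen. AUR3 and TIC were dropped from the lists because these symbols belong here to a kinase and a clock gene. Promoter and protein sequences were not used here.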

Additional observations from a re-analysis of the deposited data

Results flagged for a closer look

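Because each group has 1 array, none of the opposite directions given here was tested. They are listed because the 2 genotypes, or the 2 light conditions, moved in opposite directions under the same contrast. The size given is the dark response in sfr6 minus that in wild type, on the log2 scale of floored signals.

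IAA18 was lower in sfr6 in light and higher in dark, with a difference of 0.61. With array-median spike-in centring its light difference was 0.03 and the difference of responses 0.33, so the directions were then no longer opposite. The 5 genes most like it do the same by the way they were picked, at 0.66 for AT1G11390, 0.60 for NDP1, 0.63 for AT5G16610, 0.56 for AT3G17740 and 0.73 for AT4G17810. That centring turned the light direction of 4 of these 5 as well. UGT74D1 was also lower in sfr6 in light and higher in dark, at 0.48, but its light difference of -0.16 became 0.06 with spike-in centring.

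The GH3 genes beside WES1 went apart from each other. GH3.3 was higher in sfr6 in light and lower in dark, at -1.58, which depends on the floor because its wild-type light signal lay under it. GH3.17 was lower in sfr6 in light and higher in dark, at 0.81. Its dark response was negative in wild type and close to 0 in sfr6, with a positive sign that turned with quantile normalization and with either spike-in centring.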

How the results depend on the processing

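No paired analysis was possible because all 4 arrays carry the same replicate number and each group has 1 array, and the fit already compares dark with light within genotype. No array could be left out of it. The dark differences of WES1 and IAA18 kept their direction in the 4 scalings, and WES1 stayed over 2-fold in both genotypes. The 3 changes of floor leave these genes as they are, since their signals lie over each floor. A difference counted as moved when it shifted by the spike-in SD of its comparison or more. A signal counted as moved when its log2 shifted by the smallest of these SDs or more, and a count when it changed by more than 1.5-fold. Centring on spike-in controls gave genotype differences of 0.12 in light and -0.40 in dark for WES1 and -0.11 and 0.42 for IAA18. Centring on spike-in array medians, an alternative chosen after seeing the data, gave light signals of 77.3 in wild type and 92.7 in sfr6 for WES1 and 146.8 and 150.3 for IAA18. It gave light genotype differences of 0.26 and 0.034 and response differences of -0.72 and 0.33 for WES1 and IAA18. The median of all probe sets then moved by 0.36 in light, against 0.22 with the first spike-in centring. Median centring moved that of the dark difference by 0.16 in wild type. These shifts come from the scaling itself.

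Of the auxin list genes, the floor at the 60th percentile left 2 falls in place of 4, with YUC2 and SMZ at -0.12 and -0.31, since their dark signals lie under that floor. IAA34 passed with the floor at the 20th percentile, at 1.26. With array-median spike-in centring GH3.3 passed, though its effect of 1.04 was smaller than the 1.13 on the deposited scale. The adjusted p-values of HAT2 and ARL by limma were also lower in that setting, at nearly the same effects. LBD16 turned to -0.016. The cause of these changes was not tested.

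Counts over all probe sets depended most on the settings. For the genotype effect by limma the main counts were 63 higher and 130 lower. They were 251 and 344 with the floor at the 20th percentile, 0 and 3 at the 60th, 33 and 82 without a floor, 21 and 82 with quantile normalization, 9 and 80 with median centring, 963 and 201 with spike-in centring, 1451 and 283 with array-median spike-in centring, 278 and 340 over the floor on all 4 arrays, and 0 and 2 with no trend of the variance on intensity. At an unadjusted p under 0.05 the main counts were 1708 and 1281. Falls in the dark were 1727 with the floor at the 60th percentile, against 2684. Probe sets at least 2-fold different in dark in wild type, in dark in sfr6, between genotypes in light and between genotypes in dark were 1982, 1999, 400 and 341. At 3-fold they were 709, 650, 70 and 76, and at 1.5-fold 4593, 4699, 1967 and 1535. Without a floor they were 5515, 5423, 3302 and 3407, and at the 60th percentile 1263, 1217, 223 and 190. At the 20th percentile the dark counts were 3026 in wild type and 2897 in sfr6, and the genotype counts were 990 in light and 857 in dark. The genotype count in light was 834 with array-median spike-in centring. All list genes had 1 probe set, so averaging probe sets changed nothing. Signals near the floor limit GH3.3, IAA34, LBD16, the marker EXPA7 and, of the genes most like IAA18, AT1G11390, NDP1, AT5G16610 and AT3G17740.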
